A study of Mus musculus with 35 samples.

Results

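Angptl4, Pdk4, Cpt1a, Slc25a20, Acot1, Acot2, Acadm, Acadl and Bdh1 are 9 genes of fat and ketone use that are known targets of the peroxisome proliferator-activated receptors (PPARs). They were taken by name, by no rule on measured values, from the 25655 genes of each of 8 comparison tables of mouse retina. Earlier results of these data were known when the 9 were chosen. All 9 had a p-value and an adjusted p-value in all 8 comparisons.

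The retinas came from mice that the series text calls CX3CR1-WT, and messenger RNA was sequenced in 35 samples of 7 groups. ND was non-diabetic retina (6 samples), and D6, D8 and D10 were retina after 6, 8 and 10 weeks of diabetes (5 samples each). PBS is named in the labels of D8 and D10 but not in those of ND or D6. In the D8 depleted group (4 samples) microglia, which are the immune cells that live in neural tissue, had been depleted for 2 weeks. D10 repopulated and ND repopulated (5 samples each) are groups in which depletion for 2 weeks was followed by 2 weeks of recovery. The labels name the depleting agent DTx and the series text names a drug given in chow, so only the word depletion is used here. The age and sex of the mice, how diabetes was induced, and whether each sample is a separate animal are stated neither in the labels nor in the series text. If samples share an animal, the p-values measure only the spread between these samples.

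PPARs are nuclear receptors that bind fatty acids and, as partners of the retinoid X receptors, switch on genes for the handling of fat. PPAR alpha is best known from the fasting liver, where it turns on fatty acid oxidation and the making of ketone bodies. In the retina, photoreceptors and the pigment epithelium can burn fatty acids beside glucose, and the pigment epithelium makes ketone bodies that photoreceptors can take up. Several of the 9 genes also answer to other factors, among them the glucocorticoid receptor and, for Angptl4, hypoxia-inducible factor (HIF).

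Each table gives, per gene, a log2 fold change between a pair of groups, a p-value, a p-value adjusted over genes (FDR) and the larger of both group means, in a unit that the headers do not state. Levels are therefore compared only within a gene. Where a group mean was not the larger one, it was computed from the other mean and the fold change and is called implied. Values per library were not analysed here, so sequencing depth and the spread within groups are unknown. The standard error (SE) given with a log2 value is the one its p implies, and a gene is called at an adjusted p under 0.05. Of 7 microglia markers, 7 were called lower in D8 depleted than in D8, and 5 were still called lower in D10 repopulated than in ND (median log2 -0.85). Of the rod markers and of the other retinal marker lists none was at 0. The sample numbers of D8 and D10 lie in another run of numbers than those of the other 5 groups, and this cannot be told apart from the groups themselves.

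Of the 9 genes, 7 rose in at least 1 diabetic group without depletion against ND, and none was called lower in any of the 8 comparisons. In D6 against ND 7 of 9 were called higher, where 14.1% of all tested genes were. In D8 against ND it was 3 of 9, with 2.33% of all tested genes, and in D10 against ND 4 of 9, with 5.59%. D8 depleted against ND gave 7 of 9, with 15.5%, and D10 repopulated against ND gave 6 of 9, with 7.49%. The median log2 fold change of the 9 genes in these 5 comparisons was 0.52, 0.40, 0.52, 0.82 and 0.55, and that of all tested genes lay between 0.00 and 0.04. The shares of all tested genes called lower were 9.31% in D6, 0.583% in D8, 1.41% in D10, 13% in D8 depleted and 4.19% in D10 repopulated against ND, 4.9% in D8 depleted against D8, 0.267% in D10 repopulated against D10 and 0.0714% in ND repopulated against ND. The comparisons with ND share its samples and are not independent of each other. Angptl4, Cpt1a and Acadm were called in all 5, while Slc25a20 was called in none.

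Markers of other tissues and cells also differed from ND in these groups. Blood markers were called lower in 1 of 5 genes in D6 (median log2 -2.03), 4 of 5 in D8 (-3.59) and 5 of 5 in D10 (-3.36). Lens markers were lower in 4 of 6 genes in D8 (median -5.23) and 6 of 6 in D8 depleted (-8.00), and 1 of 6 was higher in D6. Pigment epithelium and choroid markers were higher in 2 of 7 genes in D8 depleted (median 0.95) and in 2 of 7 in D10 repopulated (1.34). Tyrp1 and Pmel of that list lay below ND in D8 depleted (log2 -0.62 and -0.06) and in D10 repopulated (-0.93 and -1.03), without being called. Müller glia markers were lower in 4 of 6 genes in D6, 0 in D8, 4 in D10, 5 in D8 depleted and 1 in D10 repopulated, with medians of -0.57, -0.34, -0.55, -0.85 and -0.35. The authors' test gave 4 of 6 in D8 at an unadjusted p under 0.05. The part of any of these in the values of the 9 genes was not tested.

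**Figure D1:**
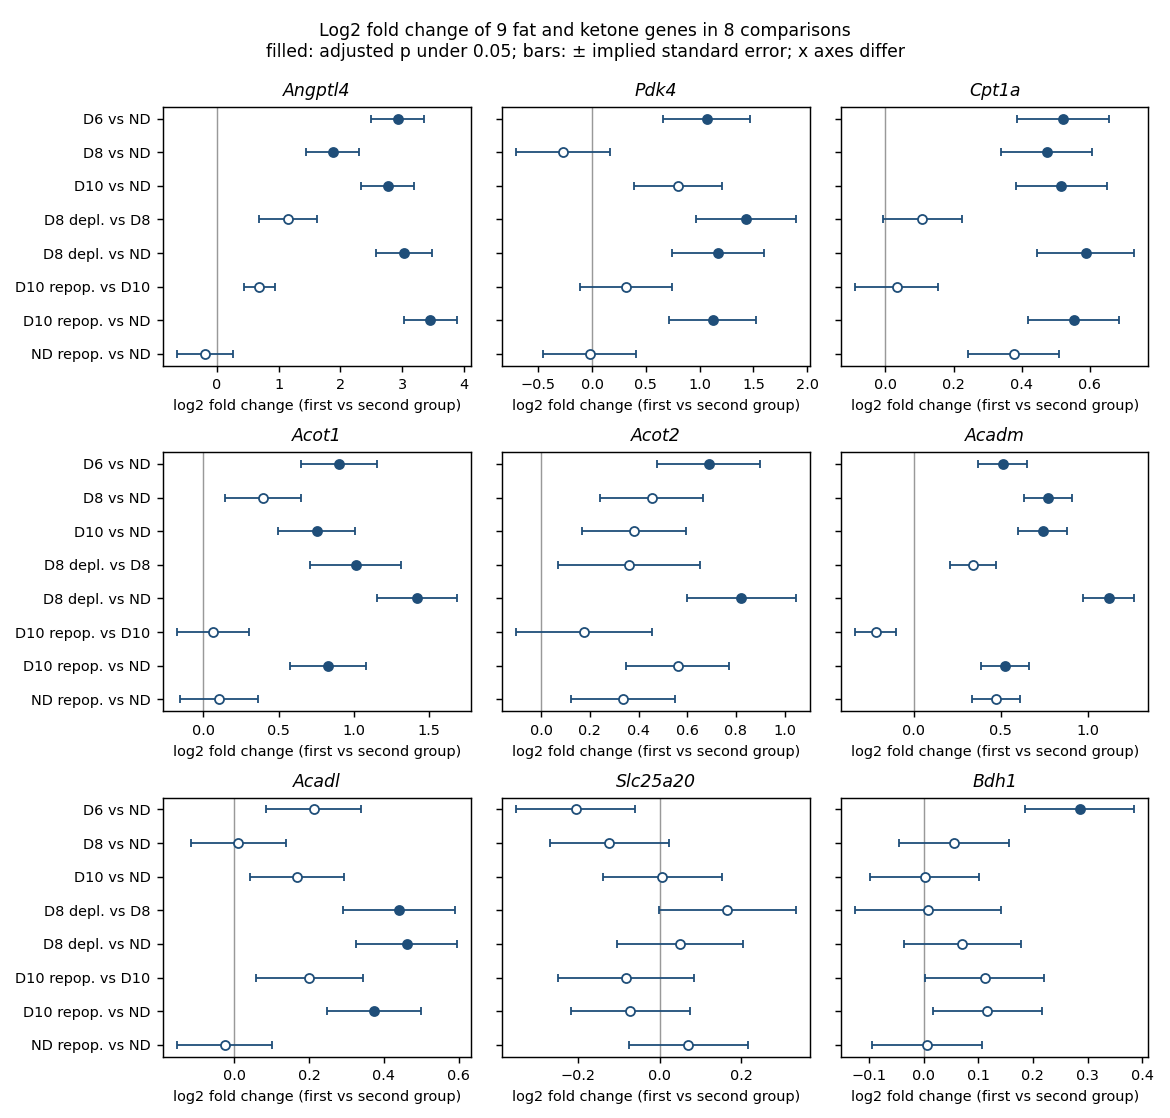
Log2 fold change of each of the 9 genes in each of the 8 comparisons, with bars of 1 implied SE and filled points where the adjusted p is under 0.05. Angptl4 has the highest values, from 1.88 to 3.45 in the 5 diabetic groups against ND, and lies at -0.19 in ND repopulated against ND.

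Angptl4 encodes a secreted inhibitor of lipoprotein lipase, the enzyme that frees fatty acids from blood lipoproteins. Its mean was 0.181 in ND and an implied 0.159 in ND repopulated. The diabetic groups stood at 1.35 in D6, 0.683 in D8, 1.26 in D10, 1.54 in D8 depleted and 2.03 in D10 repopulated. All 5 diabetic means were thus above both non-diabetic ones, with D8 the lowest of them. In the authors' deposited table Angptl4 was 7.59-fold higher in D6 than in ND (log2 2.92, SE 0.43, adjusted p = 1.71e-09). The authors' deposited table for D8 gave log2 1.88 (SE 0.43, adjusted p = 0.00116), and the one for D10 gave 2.76 (SE 0.43, adjusted p = 1.10e-08). D8 depleted exceeded ND by log2 3.03 (SE 0.45, adjusted p = 3.25e-09) and D10 repopulated exceeded it by 3.45 (SE 0.43, adjusted p = 2.07e-13) in the authors' deposited tables. Angptl4 was in the lower part of the range of levels: the share of tested genes with a lower larger mean was 27.8% to 38.3% in the 7 comparisons with a diabetic group and 8.73% in ND repopulated against ND.

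Pdk4 encodes a kinase that switches off the pyruvate dehydrogenase complex and so holds back the use of glucose carbon. Its means were 0.0908 in ND, an implied 0.0893 in ND repopulated, 0.185 in D6, an implied 0.0752 to 0.0790 in D8 and 0.164 in D10. D8 depleted stood at 0.213 and D10 repopulated at 0.201. D8 thus lay beside the non-diabetic groups, and the other 4 diabetic groups lay above them. In the authors' deposited tables the log2 difference from ND was 1.07 in D6 (SE 0.40, adjusted p = 0.0388), 1.17 in D8 depleted (SE 0.43, adjusted p = 0.0257) and 1.12 in D10 repopulated (SE 0.40, adjusted p = 0.0474). D8 (-0.27, adjusted p = 0.906) and D10 (0.80, adjusted p = 0.312) were not called in the authors' deposited tables. All these means are low, and the call in D10 repopulated ended (adjusted p = 0.0515) when the authors' p was adjusted over every gene with a p.

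Cpt1a encodes the outer membrane enzyme that commits long-chain fatty acids to entry into mitochondria. Its mean was an implied 30.9 to 32.9 in ND and 41.4 in ND repopulated. The diabetic groups lay close together, at 44.4 in D6, 45.2 in D8, 46.1 in D10, 49.5 in D8 depleted and 47.2 in D10 repopulated. In the authors' deposited tables the log2 differences from ND were 0.52 in D6 (adjusted p = 0.00136), 0.47 in D8 (adjusted p = 0.0190) and 0.52 in D10 (adjusted p = 0.00285). Those of D8 depleted and D10 repopulated were 0.59 (adjusted p = 4.51e-04) and 0.55 (adjusted p = 9.69e-04) in the authors' deposited tables. Slc25a20 encodes the carrier that takes the acylcarnitines made by this step across the inner membrane. It stood at 7.52 in ND, and its 8 log2 values in the authors' deposited tables lay between -0.21 and 0.17, none of them called. The 95% interval of its D6 difference from ND ran from -0.49 to 0.08.

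Acadm and Acadl encode the medium-chain and long-chain acyl-CoA dehydrogenases, which start each round of fatty acid oxidation. Acadm had an implied mean of 27.5 to 28.9 in ND, against 38.7 in ND repopulated, 39.1 in D6, 48.7 in D8, 47.2 in D10, 62.9 in D8 depleted and 40.4 in D10 repopulated. D8 depleted was the highest group and ND the lowest. In the authors' deposited tables Acadm was above ND by log2 0.51 in D6 (SE 0.14, adjusted p = 0.00285), 0.77 in D8 (SE 0.14, adjusted p = 7.25e-06) and 0.74 in D10 (SE 0.14, adjusted p = 6.05e-06). It was 2.17-fold higher in D8 depleted (log2 1.12, SE 0.15, adjusted p = 1.45e-11) and 1.44-fold higher in D10 repopulated (log2 0.52, SE 0.14, adjusted p = 0.00336) in the authors' deposited tables. Acadl went from 7.58 in ND to 8.53 in D6, 7.78 in D8 and 8.63 in D10, none of them called. It was called in D8 depleted (10.7, log2 0.46, adjusted p = 0.00410) and in D10 repopulated (9.89, log2 0.37, adjusted p = 0.0309) in the authors' deposited tables. Acadm was thus called in all 5 diabetic groups against ND, and Acadl in the pair that had been through depletion.

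The sequence before the gene start is shown for Cpt1a and Acadm, the 2 members whose sequence holds AGGTCA, the core letters that nuclear receptors of this family bind in pairs. RefSeq promoters (GRCm38.p6, another build than the GRCm39 of the tables) were matched by symbol for 8 of the 9 genes, and the 250 bases before the start are printed, 5′ to 3′ on the gene's strand. Capitals mark AGGTCA on either strand, here read as its reverse complement. The Cpt1a stretch is chr19:3323051-3323300 on the plus strand, with the match 94 bases before the start. The Acadm stretch is chr3:153944644-153944893 on the minus strand, with the match 249 bases before the start.
Cpt1a: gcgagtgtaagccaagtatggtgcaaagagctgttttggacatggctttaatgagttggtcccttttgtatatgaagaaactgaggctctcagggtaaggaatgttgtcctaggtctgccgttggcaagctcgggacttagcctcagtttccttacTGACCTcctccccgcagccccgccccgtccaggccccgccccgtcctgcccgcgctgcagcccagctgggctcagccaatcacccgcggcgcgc
Acadm: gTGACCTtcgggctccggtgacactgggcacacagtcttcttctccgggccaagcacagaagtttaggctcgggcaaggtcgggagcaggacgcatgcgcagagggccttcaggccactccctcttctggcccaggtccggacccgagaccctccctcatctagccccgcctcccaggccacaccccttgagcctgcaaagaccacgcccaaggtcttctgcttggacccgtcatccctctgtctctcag
AGGTCA occurred in 14% of all 32851 promoters over these 250 bases, so a match is a description and not a site. The direct repeat of AGGTCA with 1 base between the copies, the form that PPARs and their partners bind, occurred in 0.0335% of promoters, and the same repeat with the fourth base of each copy free in 0.338%. Neither was found in the 8 genes, which says only that these letters are not in the window. Angptl4 had no promoter sequence here and was searched for none of the motifs. These were 3 of 10 motifs searched on both strands, first over 300 bases and then over the 250 before the start, and AGGTCA lies within both repeats. The GC box GGGCGG was found in 4 of the 8 genes over 250 bases and in 32.7% of all promoters. The other 6 motifs (the palindromes of nuclear factor I and of the glucocorticoid receptor, the HIF core ACGTG, the E box CACGTG that contains this core, the forkhead motif TGTTTAC and the TATA box TATAAA) were found in none of the 8.

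Acot1 and Acot2 encode thioesterases that split acyl-CoA into free fatty acid and coenzyme A, Acot1 in the cytosol and Acot2 in mitochondria. They are neighbours on chromosome 12 (GRCm39, Acot2 at 84034635 to 84040647 and Acot1 at 84056264 to 84065145), 15617 bases apart. Of the stretches of 100 bases in their transcripts, 12.4% for Acot1 and 17.1% for Acot2 also occur in other genes, so how reads were split between them is uncertain. Their promoters are shown side by side as those of neighbours that were both called in D6 and in D8 depleted against ND (RefSeq, GRCm38.p6, plus strand, chr12:84009252-84009501 and chr12:83987611-83987860).
Acot1: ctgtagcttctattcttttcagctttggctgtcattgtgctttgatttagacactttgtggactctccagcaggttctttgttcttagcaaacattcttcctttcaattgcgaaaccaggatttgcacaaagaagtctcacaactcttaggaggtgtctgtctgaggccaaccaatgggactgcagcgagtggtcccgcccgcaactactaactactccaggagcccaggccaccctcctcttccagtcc
Acot2: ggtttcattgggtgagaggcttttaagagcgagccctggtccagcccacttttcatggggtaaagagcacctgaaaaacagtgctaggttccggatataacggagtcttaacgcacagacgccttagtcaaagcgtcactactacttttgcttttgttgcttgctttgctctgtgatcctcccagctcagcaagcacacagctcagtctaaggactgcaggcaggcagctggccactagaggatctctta
Acot1 had an implied mean of 0.975 to 1.05 in ND and 1.09 in ND repopulated. It stood at 1.82 in D6, 1.36 in D8, 1.73 in D10, 2.80 in D8 depleted and 1.81 in D10 repopulated. In the authors' deposited tables the log2 differences from ND were 0.90 in D6 (adjusted p = 0.00359), 0.75 in D10 (adjusted p = 0.0439), 1.42 in D8 depleted (adjusted p = 3.91e-06) and 0.83 in D10 repopulated (adjusted p = 0.0137), and D8 was not called (0.40, adjusted p = 0.620). Acot2 had an implied 0.874 to 0.923 in ND, 1.13 in ND repopulated, 1.41 in D6, 1.25 in D8, 1.19 in D10, 1.63 in D8 depleted and 1.34 in D10 repopulated. It was called in D6 (log2 0.69, adjusted p = 0.00862) and in D8 depleted (0.82, adjusted p = 0.00197) against ND in the authors' deposited tables.

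Bdh1 encodes the mitochondrial dehydrogenase that interconverts the ketone bodies acetoacetate and beta-hydroxybutyrate. Its mean was an implied 8.08 to 8.64 in ND, 8.39 in ND repopulated and 9.86 in D6, and the other 4 diabetic groups lay between 8.48 and 9.13. It was called in D6 against ND alone, by log2 0.29 (SE 0.10, adjusted p = 0.0238) in the authors' deposited table.

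**Figure D2:**
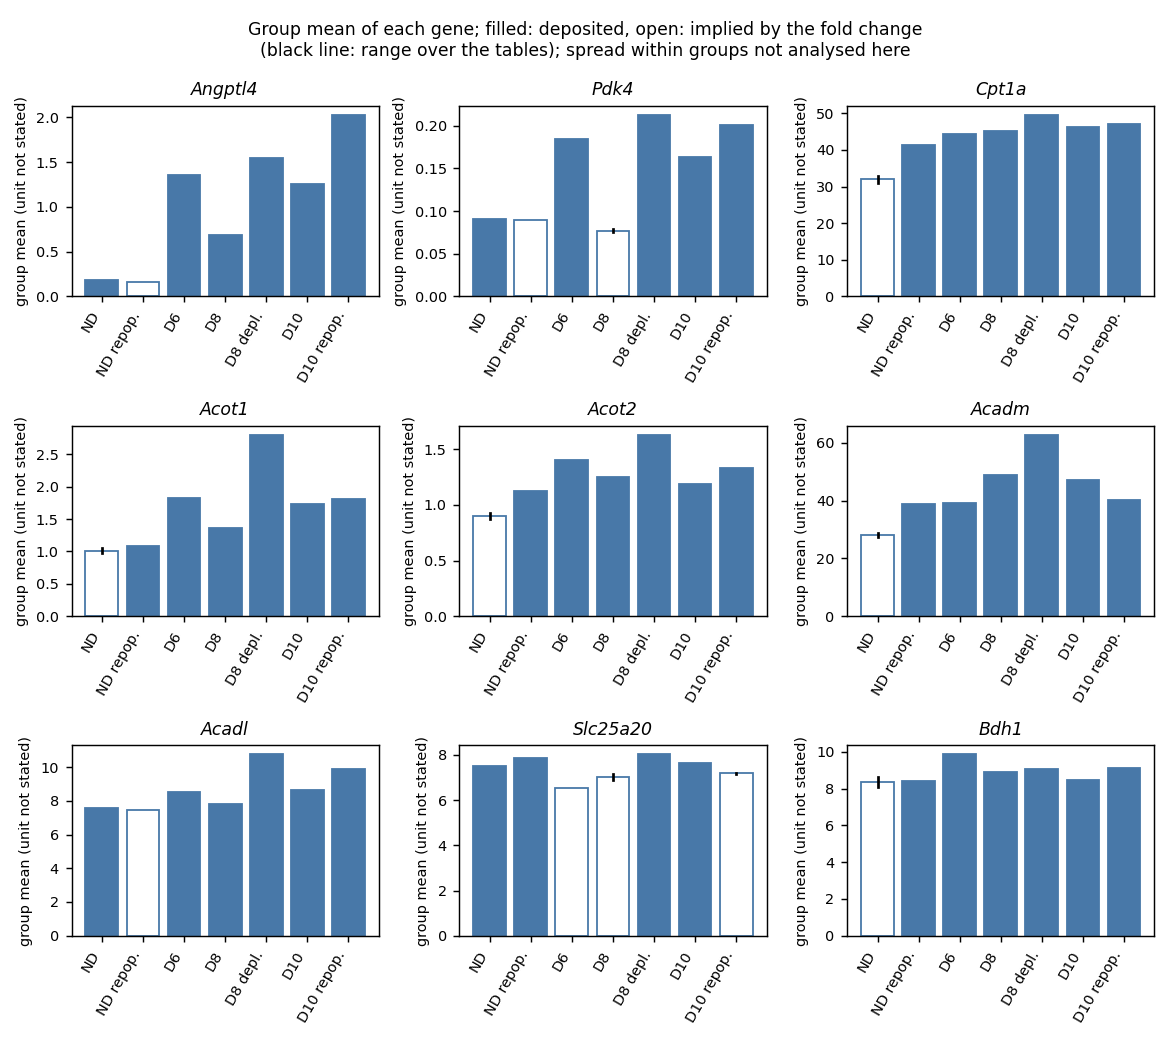
Mean level of each gene in the 7 groups, in the tables' own unit, which is not stated; filled bars are deposited means, open bars implied ones, and a black line is the range of the implied mean over the tables. Angptl4 ranges from 0.159 to 2.03, and D8 depleted is the highest group for Pdk4, Cpt1a, Acot1, Acot2, Acadm, Acadl and Slc25a20.

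Depletion of microglia in diabetic retina was compared at 8 weeks. In D8 depleted against D8, 3 of 9 genes were called higher, where 5.85% of all tested genes were. These were Pdk4 (2.69-fold, log2 1.43, SE 0.46, adjusted p = 0.0274), Acot1 (2.01-fold, log2 1.01, SE 0.30, adjusted p = 0.0152) and Acadl (1.36-fold, log2 0.44, SE 0.15, adjusted p = 0.0369) in the authors' deposited table. Angptl4 (log2 1.15, SE 0.47, adjusted p = 0.0890) and Acadm (0.34, SE 0.13, adjusted p = 0.0718) did not pass in the authors' deposited table. The labels of D8 add PBS, and D8 lies in the other run of sample numbers, so neither can be told apart from depletion here. Microglia markers had a median log2 of -3.23, and in bulk retina fewer cells of a type and less RNA per cell cannot be told apart. Pigment epithelium and choroid markers moved in the other direction, with 4 of 7 called higher and a median of 1.24, blood markers had 4 of 5 higher (median 2.13), and lens markers had 3 of 6 lower (median -2.27). Müller glia markers had 4 of 6 lower (median -0.45) and endothelial markers 2 of 6 lower (median -0.27). The summed level of these lists over the 8 tables, from the larger means, ran from 38.9 to 101 for pigment epithelium and choroid, 38.9 to 129 for blood and 30.9 to 3178 for lens. The part of these tissues in the values of the 9 genes was not tested.

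Repopulation was compared at 10 weeks. In D10 repopulated against D10, 0 of 9 genes passed the adjusted p of the authors' test, whose name the headers do not state, where 0.178% of all tested genes were called higher. By unadjusted p under 0.05, which 7.27% of all tested genes had, it was 1 of 9, Angptl4 (log2 0.69, SE 0.26, p = 0.00713, adjusted p = 0.338) in the authors' deposited table. Acadm had a log2 of -0.22 (SE 0.12, adjusted p = 0.737) in the authors' deposited table. Pigment epithelium and choroid markers had 3 of 7 higher and 1 lower, with a median of 1.60, and blood markers 4 of 5 higher (median 3.81). Microglia markers had 2 of 7 lower, with a median of -0.86, and Cx3cr1 was at log2 -1.96 (adjusted p = 5.90e-06) in the authors' deposited table.

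In ND repopulated against ND, 0 of 9 passed the adjusted p of the same test, where 0.0844% of all tested genes were called higher. By unadjusted p under 0.05, which 2.48% of all tested genes had, it was 2 of 9, Acadm (log2 0.47, SE 0.14, p = 7.31e-04, adjusted p = 0.250) and Cpt1a (0.38, SE 0.13, p = 0.00499, adjusted p = 0.925), in the authors' deposited table. The log2 of Angptl4 was -0.19 (SE 0.45). Pigment epithelium and choroid markers had a median of 1.24 there, with 0 of 7 called and 6 of 7 at an unadjusted p under 0.05 by the authors' test. Those 6 went both ways. Rpe65 (log2 1.28), Ttr (1.29), Lrat (1.24) and Rgr (1.36) were higher, while Tyrp1 (-1.12) and Pmel (-1.36) were lower. The part of these markers in the values of the 9 genes was not tested.

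Differences between comparisons were computed from the authors' tables in 6 cases, with a normal test and p adjusted over all genes. For D8 minus D6, D10 minus D6 and D10 minus D8, all relative to ND, the normal test called 0 of 9 genes, where 0.0229%, 0.0115% and 0% of all tested genes were called. At an unadjusted p under 0.05 stood 1, 1 and 0 of the 9, and 7.53%, 7.47% and 1.26% of all tested genes. With the variance that the shared ND samples bring taken off, again 0 of 9 were called, where 3.76%, 3.26% and 0.0173% of all tested genes were. At an unadjusted p under 0.05 it was 3, 1 and 2 of 9, and 18.9%, 18.6% and 4.3% of all tested genes. Where both comparisons share ND, added variances overstate the SE. For D8 depleted against D8 by way of ND, the median ratio to the direct SE was 1.27 added and 0.96 taken off. Angptl4 in D8 minus D6 was at log2 -1.05 (SE 0.61, adjusted p = 0.719, variances added) by the normal test from the authors' tables. With the shared variance taken off, the normal test gave it SE 0.45 (adjusted p = 0.165, from the authors' tables). Pdk4 was at -1.34 by that test (SE 0.44, adjusted p = 0.0567, from the authors' tables). The lower levels of both in D8 thus did not pass, Pdk4 narrowly.

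For depletion against repopulation, that is D10 repopulated against D10 minus D8 depleted against D8, the normal test called 0 of 9, where 0.654% of all tested genes were called. At an unadjusted p under 0.05, which 11.6% of all tested genes had, stood 2 of 9, Acadm (log2 -0.56, SE 0.18, adjusted p = 0.0982) and Acot1 (-0.95, SE 0.39, adjusted p = 0.284), computed from the authors' tables. The other 2 differences were chosen after the data were seen. D8 depleted minus D6 called 0 of 9 by the normal test, where 0.302% of all tested genes were called, and 1 had an unadjusted p under 0.05, beside 7.76% of all tested genes, namely Acadm (log2 0.61, SE 0.20, adjusted p = 0.271, from the authors' tables). With the shared ND variance taken off, Acadm was called there (SE 0.15, adjusted p = 0.00756, from the authors' tables), where 3.42% of all tested genes were called. D10 repopulated minus ND repopulated called 1 of 9, Angptl4 (log2 3.64, SE 0.62, adjusted p = 2.14e-06, from the authors' tables), where 3.32% of all tested genes were called. At an unadjusted p under 0.05 by the normal test stood 3 of 9, beside 12.7% of all tested genes. With the shared variance taken off Acadl was called too (log2 0.40, SE 0.13, adjusted p = 0.0274, from the authors' tables), where 11.5% of all tested genes were called. Acadm (log2 0.05, SE 0.20) and Cpt1a (0.18, SE 0.19) were called in every diabetic group against ND. In this difference neither was called, with the shared variance added or taken off.

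None of the 3 PPAR genes was called higher in any comparison. Ppara, which encodes PPAR alpha, was called lower in D8 depleted against ND (log2 -1.14, adjusted p = 4.66e-04) in the authors' deposited table, and it was called in no other comparison. Ppard and Pparg, which encode PPAR delta and gamma, were called in none of the 8. Rxrb, which encodes a retinoid X receptor, was called higher in D8 depleted against ND (0.51, adjusted p = 3.94e-08) and against D8 (0.39, adjusted p = 0.0205) in the authors' deposited tables. Ppargc1b, a coactivator of oxidative metabolism, was called higher in D8 depleted (0.58, adjusted p = 2.96e-05) and D10 repopulated (0.33, adjusted p = 0.0303) against ND in the authors' deposited tables.

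The rest of the pathway was read from 7 lists of 105 other genes. In D6 against ND 10 of 104 tested were called higher and 11 lower, in D8 0 and 1 of 104, and in D10 2 and 1 of 102. D8 depleted against ND had 23 higher and 11 lower of 104, D8 depleted against D8 12 and 3 of 101, and D10 repopulated against ND 11 and 6 of 104. D10 repopulated against D10 and ND repopulated against ND had 0 of 100 and 0 of 97 by the authors' adjusted p, with 11 and 7 at an unadjusted p under 0.05, as D8 against ND had 13. In D6 9.62% of the list genes were thus higher, beside 14.1% of all tested genes, in D8 0% beside 2.33%, and in D10 1.96% beside 5.59%. In D8 depleted against ND it was 22.1% beside 15.5%, and against D8 11.9% beside 5.85%. In D10 repopulated against ND it was 10.6% beside 7.49%. Called lower in D6, D8 and D10 were 10.6% beside 9.31%, 0.962% beside 0.583% and 0.98% beside 1.41%. In D8 depleted, 10.6% were lower than ND beside 13%, and 2.97% lower than D8 beside 4.9%. In D10 repopulated 5.77% were lower than ND, beside 4.19%. Mitochondrial fatty acid entry and oxidation had 9 of 22 higher and 1 lower in D8 depleted against ND, with a median of 0.21 beside 0.02 over all genes. Slc22a5, the carnitine transporter (log2 0.74, adjusted p = 2.31e-06), and Acaa2, a thiolase of the last step of oxidation (0.62, adjusted p = 1.56e-04), were among them in the authors' deposited table. In D6 that list had 2 higher and 2 lower of 22, where 14.1% of all tested genes were higher and 9.31% lower. Slc22a5 (0.57, adjusted p = 1.84e-04) and Eci2 (0.51, adjusted p = 0.00323) were higher there in the authors' deposited table. Hadh, the next dehydrogenase of the spiral, was lower (-0.55, adjusted p = 3.81e-04) in the authors' deposited table.

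**Figure D3:**
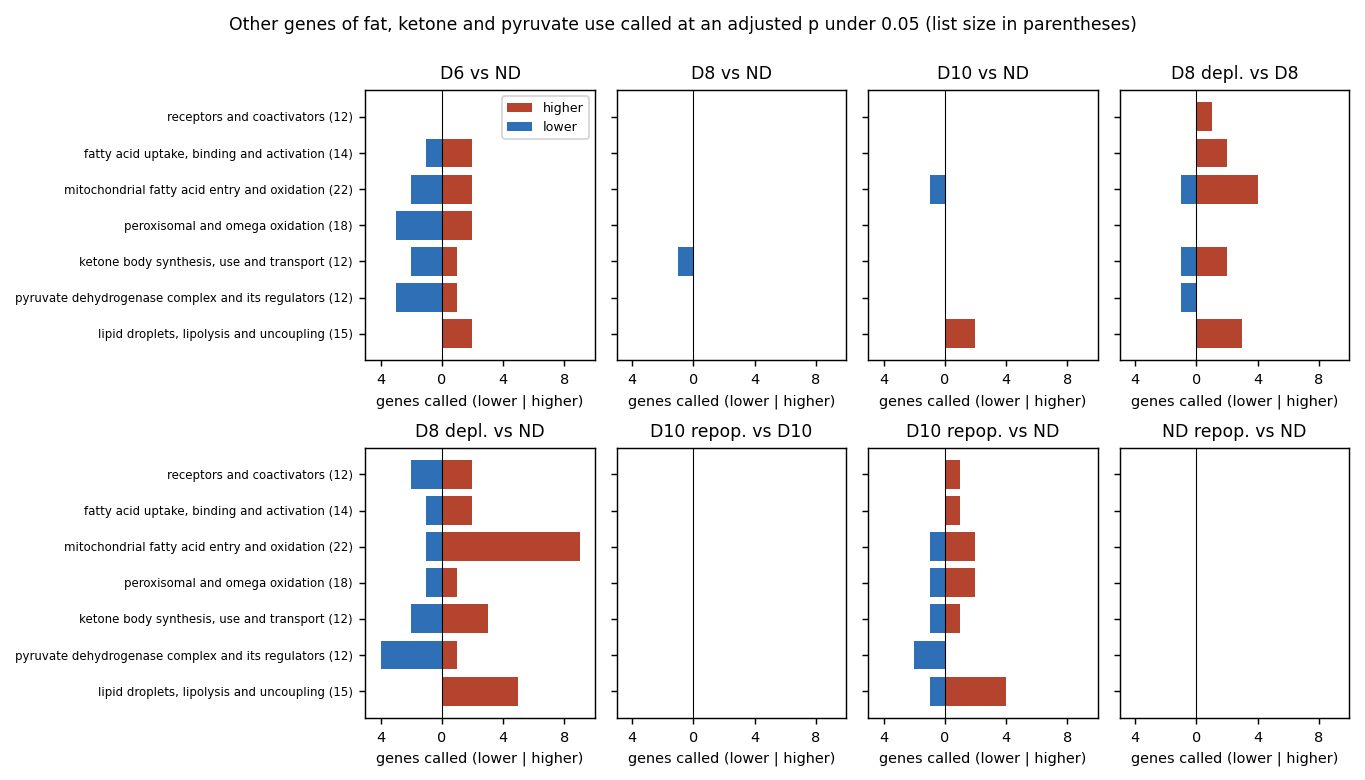
Number of genes called higher and lower in each of the 7 pathway lists in each of the 8 comparisons. The fullest entry is mitochondrial entry and oxidation in D8 depleted against ND, with 9 higher and 1 lower of 22.

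The list of 15 lipid droplet, lipolysis and uncoupling genes had 2 higher in D6, 0 in D8 and 2 in D10 against ND by the authors' adjusted p. In D8, 2 had an unadjusted p under 0.05. The list had 5 higher in D8 depleted, and 4 higher and 1 lower in D10 repopulated. Of all tested genes 14.1%, 2.33%, 5.59%, 15.5% and 7.49% were higher in these comparisons. Among these list genes, Plin4, a droplet coat protein, was higher than ND in D6 (log2 2.01, adjusted p = 4.64e-07), D10 (1.98, adjusted p = 5.85e-07), D8 depleted (2.21, adjusted p = 1.30e-07) and D10 repopulated (2.34, adjusted p = 1.36e-09) in the authors' deposited tables. Pnpla2, the first lipase of droplet breakdown, was higher than ND in D6 (1.37, adjusted p = 2.46e-07), D10 (0.70, adjusted p = 0.0361), D8 depleted (1.09, adjusted p = 1.29e-04) and D10 repopulated (1.07, adjusted p = 1.25e-04) in the authors' deposited tables. In D8 against ND Pnpla2 was not called (0.38, adjusted p = 0.588) in the authors' deposited table. It was higher in D8 depleted than in D8 (0.71, adjusted p = 0.00539) in the authors' deposited table. Its D8 and D8 depleted values against ND were added after its values were seen. Fat cell markers were low: the list's summed level was 0.0874 to 0.163 over the 8 tables. Cfd and Lep, 2 of its 4 genes, were at or near 0 in all of them. Adipoq was at log2 1.53 in D6, -0.07 in D8, -0.05 in D10, 1.12 in D8 depleted and 0.41 in D10 repopulated against ND. Plin1 was at 0.24, 0.48, 0.59, 0.64 and 0.75 in the same order. Neither was called in any comparison, and the part of fat tissue in the values of the 9 genes was not tested. Among regulators of pyruvate dehydrogenase, Pdk1, a kinase with the same substrate as Pdk4, was lower in D6 (-0.66, adjusted p = 1.06e-04) and D8 depleted (-0.86, adjusted p = 1.07e-06) against ND in the authors' deposited tables. Pdk1 was also lower in D10 repopulated against ND (-0.49, adjusted p = 0.00977) and in D8 depleted against D8 (-0.61, adjusted p = 0.00165) in the authors' deposited tables. Among ketone genes, Oxct1, the enzyme that commits ketone bodies to use, was called in none of the 8. The ketone list of 12 had 1 higher and 2 lower in D6, 0 and 1 in D8 and 0 in D10 against ND. It had 3 and 2 in D8 depleted and 1 and 1 in D10 repopulated. Of all tested genes 14.1%, 2.33%, 5.59%, 15.5% and 7.49% were higher there, and 9.31%, 0.583%, 1.41%, 13% and 4.19% lower. Slc16a3 was called lower than ND in D6 (log2 -1.50), D8 depleted (-1.22) and D10 repopulated (-0.93). Slc16a8 was called higher in the same groups (1.21, 1.77 and 1.63). In D8 depleted against D8, Slc16a3 was called lower (-0.66) and Slc16a8 higher (1.72). Pigment epithelium and choroid markers had medians of 0.54 in D6, 0.95 in D8 depleted and 1.34 in D10 repopulated against ND. Their medians were -0.38 in D8 and -0.05 in D10, and the part of this tissue in the values of Slc16a8 was not tested.

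Lists of glucocorticoid receptor and HIF targets were read beside the 9 genes because some of the 9 answer to those factors. Glucocorticoid receptor targets had 10 of 15 higher and 1 lower in D6 against ND, led by Mt2 (log2 4.54, adjusted p = 2.35e-18) in the authors' deposited table, 5 and 1 in D8, and 7 and 0 in D10. It was 8 and 1 in D8 depleted and 9 and 1 in D10 repopulated against ND. HIF targets had 0 of 13 higher and 4 lower in D6 against ND, and 0 of 13 either way in D8 and D10 by the authors' adjusted p, with 4 in each at an unadjusted p under 0.05. In D8 depleted against ND 1 HIF target was higher and 4 lower, and in D10 repopulated 0 and 2. Of all tested genes 14.1%, 2.33%, 5.59%, 15.5% and 7.49% were higher in D6, D8, D10, D8 depleted and D10 repopulated against ND. The shares called lower were 9.31%, 0.583%, 1.41%, 13% and 4.19%. The part of these factors in the values of the 9 genes was not tested.

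The genes with the pattern nearest to Angptl4 were sought because it had the largest median change among the genes called most often. The search covered 14861 genes with an adjusted p in all 8 comparisons, with predicted gene and clone names left out. The 5 with the smallest root mean square difference of log2 values were Nos2 (0.32), Apol9b (0.35), Igfbp3 (0.35), Neurl3 (0.35) and Ccl19 (0.44). Nos2 encodes inducible nitric oxide synthase, Igfbp3 a secreted binder of insulin-like growth factors, and Ccl19 a chemokine. In the authors' deposited tables Nos2 was at 3.44 in D6, 1.72 in D8 and 2.99 in D10 against ND, beside 2.92, 1.88 and 2.76 for Angptl4.

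**Figure D4:**
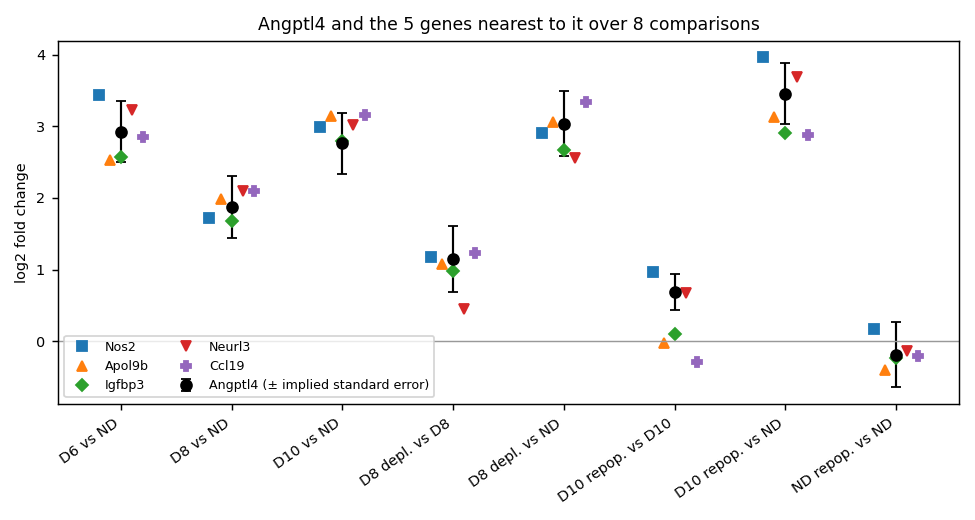
Log2 fold change of Angptl4 and of the 5 genes nearest to it across the 8 comparisons, the distance being the root mean square difference over them. All 6 are highest against ND in diabetic groups and lie between -0.40 and 0.17 in ND repopulated against ND.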

How the data were processed

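Retinal messenger RNA of 35 samples was measured with stranded libraries. Base calls were converted with bcl2fastq and the genome was GRCm39, per the submitters' processing notes; for the aligner, counter, scaling and test no source used here gives a name. Deposited by the authors were 8 tables with log2 fold changes, a p-value and an FDR p-value per gene, and a signal level that is the larger group mean, per the file headers. D10 repopulated against D10 is the reverse of the deposited table, so its signs were changed. The SE is the log2 value over the standard normal value that its p corresponds to. Differences were tested with a normal test on log2 values, variances added, Benjamini-Hochberg adjusted over all genes. Depth per sample was not analysed here.

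The members, lists and tests were chosen with earlier results of these data known. Named are all 9 members, at most the 3 largest called genes of a list per comparison, Ppara, Ppard, Pparg and Oxct1 always, and the 5 genes nearest to Angptl4; only some are printed, and 1 gene that the rule takes is not reported here. Alternatives were an adjusted p under 0.01 or 0.10, a minimum absolute log2 of 1, the lowest 40 percent of levels left out, adjustment over every gene with a p, and the shared ND variance taken off. The promoter window was shortened to 250 bases so that no transcribed bases are printed. The steps were tested on simulated data. Python 3.11.15, numpy 2.4.6, pandas 2.3.3, scipy 1.17.1 and matplotlib 3.10.9 were used.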

Additional observations from a re-analysis of the deposited data

Results flagged for a closer look

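Angptl4 differed between the repopulated groups: its log2 change from ND was 3.45 in D10 repopulated and -0.19 in ND repopulated, a difference of 3.64 (SE 0.62, adjusted p = 2.14e-06 by the normal test over all genes of the authors' tables). Both changes are measured against the same ND samples, and the test was chosen after the data were seen.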

How the results depend on the processing

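The alternatives change thresholds, filters, the adjustment or the SE and not the fold changes, so they could not change a direction. With an absolute log2 of at least 1 also required, the members called against ND fell to 2 in D6, 1 in D8, 1 in D10, 4 in D8 depleted and 2 in D10 repopulated. At an adjusted p under 0.01, D8 depleted against D8 had 0 members called by the authors' test, with 5 at an unadjusted p under 0.05, and D10 repopulated against ND had 3. At an adjusted p under 0.10, D8 depleted against D8 had 5. Leaving out the lowest 40 percent of levels gave 4 in D6 against ND, since Angptl4, Pdk4 and Acot2 are removed by it. Angptl4 is also removed in D8 and D10 against ND, D8 depleted against D8 and ND repopulated against ND. Taking off the variance of the shared ND samples gave 1 member for D8 depleted minus D6 (Acadm) and 2 for D10 repopulated minus ND repopulated (Angptl4 and Acadl). Of the lists, 39 counts at 0.01 and 20 at 0.10 moved by over 1.5 times, out of 152 each. No paired analysis was possible because the tables hold no values per sample, and leaving out each replicate was not run for the same reason. Low levels limit Pdk4 most.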
